A study of Mus musculus with 12 samples.

Results

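The genes described here are 10 genes of nitric oxide, endothelin and prostanoid signalling in the mouse aorta: Nos2, Nos3, Edn1, Ece1, Ednra, Ednrb, Ptgs1, Ptgs2, Ptges and Ptgis. They were found by name among the 34797 gene names of the array, and the 10 genes were represented by 14 of its 55681 probes. All 14 probes passed the filter on dim signals, and the 10 genes are thus among the 22769 genes that were tested. RNA from the aorta of male mice, aged 11 to 14 weeks in the methods, was hybridised to 12 one-colour arrays, 3 per group. The strain background was labelled 129S5/SvEvBrd, C57BL6 and SJL, and all 4 groups were homozygous for a floxed allele of Socs3, an inhibitor of Stat3 signalling, that had been backcrossed for 3 generations to C57BL/6J. The WT groups lacked the SM22-Cre transgene, and the smSocs3-KO groups carried it, so that the deletion was directed to smooth muscle cells and other cells of the vessel wall kept the gene. One group of each genotype was taken before challenge, and the other at day 3 of an infusion of BAPN (150 mg/kg/day), an inhibitor of collagen and elastin crosslinking, together with AngII (1000 ng/kg/min), a pressor hormone, which serves as a model of aortic dissection.

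These 3 pathways set the tone of the vessel wall. Nitric oxide, made from arginine by the nitric oxide synthases, relaxes smooth muscle through soluble guanylyl cyclase and cGMP. Endothelin-1 is cut from a precursor by an endothelin converting enzyme and contracts smooth muscle through the endothelin A receptor, whereas the endothelin B receptor on endothelium releases nitric oxide and clears the peptide. Cyclooxygenases convert arachidonic acid to prostaglandin H, from which prostaglandin E, prostacyclin and thromboxane are made, and the inducible cyclooxygenase, Ptgs2, is known for its response to inflammatory stimuli.

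The sequences before the annotated starts of Ptgs2 and Ednrb are shown because these were the members with the largest differences between day 3 and before challenge. They are the 250 bases before each start in the RefSeq promoter table of GRCm38.p6, written 5′ to 3′ on the strand of the gene, at chr1:150099781-150100030 on the plus strand for Ptgs2 and chr14:103843702-103843951 on the minus strand for Ednrb.
Ptgs2: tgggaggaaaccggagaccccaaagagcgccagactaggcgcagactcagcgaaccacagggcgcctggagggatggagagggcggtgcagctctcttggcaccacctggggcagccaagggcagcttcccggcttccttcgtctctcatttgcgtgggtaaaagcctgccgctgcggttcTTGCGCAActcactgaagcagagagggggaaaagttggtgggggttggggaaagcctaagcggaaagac
Ednrb: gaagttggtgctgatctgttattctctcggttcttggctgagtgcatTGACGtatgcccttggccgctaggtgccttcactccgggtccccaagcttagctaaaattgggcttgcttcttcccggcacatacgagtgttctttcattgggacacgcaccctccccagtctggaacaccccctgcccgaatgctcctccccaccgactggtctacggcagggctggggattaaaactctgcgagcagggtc
The capitals mark the matches among 6 motifs searched on both strands. In Ptgs2 they mark TTGCGCAA, a motif of C/EBP factors, from base 69 to base 62 before the start, and these letters, which were chosen after the sequence had been read, stood in 0.164% of all 32851 promoters of the table. In Ednrb they mark TGACG, the core of the cAMP response element, from base 203 to base 199, which stood in 17.8% of all promoters. The other motifs were TTCNNNGAA of STAT factors (7.02% of promoters), TGANTCA of AP-1 (6.75%), the E-box CACGTG (6.02%) and the TATA box TATAAA (12.4%), and these letters were not in the windows shown. Each window thus held a single match, with no overlap between motifs, and the E-box stood in the window of Ece1. Of the 10 members, 7 were in the table, and the 3 not in it were Nos2, Nos3 and Ptgis.

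Some facts of the arrays touch every result below. The share of spots well above background was between 55.4% and 61.2% on the 12 arrays, no spot was saturated, and the arrays of a group correlated with each other between 0.964 and 0.992 across genes. The arrays lay on 2 slides. Slide 1 held the 6 WT arrays and replicate 1 of smSocs3-KO before challenge, and slide 2 held the other 5 arrays of smSocs3-KO mice, so that genotype and slide cannot be told apart at day 3. The arrays labelled smSocs3-KO did not have a lower signal of Socs3, which was 0.24, 1.14 and 1.46 before challenge, compared with 0.30, 0.32 and 0.75 in WT. At day 3 it was 3.31, 2.28 and 4.13 on the arrays labelled smSocs3-KO and 2.21, 2.30 and 0.64 in WT. Whether its probe lies in the deleted stretch is not given in the sources used here. Replicate 4 of WT at day 3 stood apart from the other WT day 3 arrays. On that array Cd68, a macrophage marker, was at 1.81, compared with 3.99 and 2.95 on the others and a highest value of 1.54 in WT before challenge. For the genes named below, the call of a WT challenge response that changed without that array is therefore given both ways. The markers of smooth muscle (7 of 7) and endothelium (10 of 10) were all measured. In smSocs3-KO all 7 smooth muscle markers had their day 3 arrays below those before challenge. Of all genes, 28.1% did not overlap there in either direction, a share that includes the 14.1% that were higher. The median log2 difference of the 7 markers was -0.63, and the lowest, -1.18, was that of the myosin heavy chain Myh11 (adjusted p 0.0766 by limma). In WT the median was -0.33 and 1 of 7, Myh11, did not overlap (-0.996, adjusted p 0.0917). None of the 7 passed the adjusted threshold in either response, beside 4.68% of all genes in WT and 2.45% in smSocs3-KO. In the mean of both responses 2 of the 7 passed, beside 22.7% of all genes. Cd68, Myh11 and, further below, S100a8, Ly6g, Ptger1 and Ptgfr were singled out after their values had been seen. Nothing in the labels says that the arrays of a group came from separate animals, so the p-values measure the spread between these samples. In whole aorta, fewer cells of a type and less RNA per cell cannot be told apart.

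Throughout, a level is the log2 processed signal of a probe minus that of the 75th percentile on the same array, and levels of different probes are not compared with each other. The counts of members in this paragraph read each gene by its brightest probe. None of the 10 members passed an adjusted p of 0.05 with limma in any of the 4 pairwise comparisons or in the interaction, and none passed the threshold of the study's methods (p under 0.01 and a fold change over 4 or under 0.25). The latter was passed by 1.29% and 1.63% of all genes in the WT and smSocs3-KO challenge responses, by 0.242% and 1.11% in the genotype differences before challenge and at day 3, and by 0.307% in the interaction. Among all 22769 genes, 4.68% passed the adjusted threshold in the WT challenge response, 2.45% in the smSocs3-KO challenge response, 0.0264% in the genotype difference before challenge, 1.11% in the genotype difference at day 3 and 0% in the interaction. At an unadjusted p under 0.05, Ptgs2 passed in the WT challenge response and Ptgs2, Ednrb and Nos2 in the smSocs3-KO challenge response, that is 1 and 3 of 10 members, where 26.6% and 23.8% of all genes passed. In the genotype comparisons and the interaction no member did, compared with 4.40%, 16.2% and 5.34% of all genes. The same members were those whose day 3 arrays all lay above the arrays before challenge, 1 of 10 in WT and 3 of 10 in smSocs3-KO, beside 20.7% and 14.1% of all genes. Read by these probes, the arrays of both genotypes overlapped for all 10 members, before challenge and at day 3, while 11.1% and 20.5% of all genes did not overlap there in either direction. The other probe of Ptges did not overlap between the genotypes at day 3. Its unadjusted p there was 0.00553 by limma over probes, and that of the other probe of Ednrb was 0.0288. The median log2 difference of the members was 0.17 in the WT challenge response and 0.43 in the smSocs3-KO challenge response, compared with -0.02 and -0.06 over all genes.

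**Figure D1:**
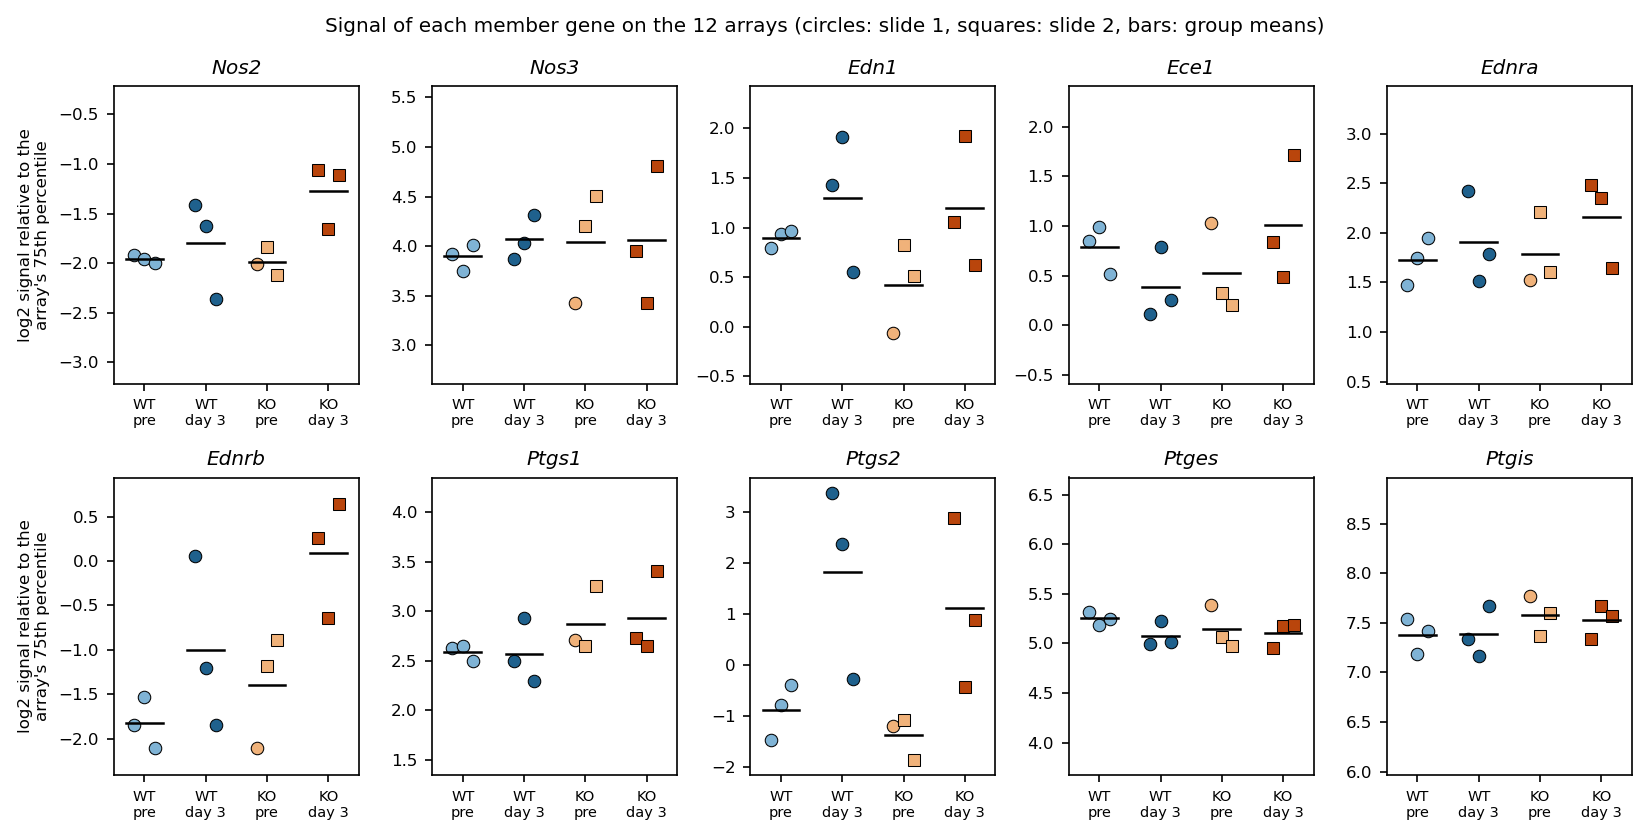
Log2 signal of the 10 member genes, scaled by the 75th percentile of an array (vertical axis, each panel with its own range) in the 4 groups of 3 arrays. Points are single arrays, circles on slide 1 and squares on slide 2, and bars are group means. Ptgs2 has its day 3 arrays between -0.42 and 3.38, all above the arrays before challenge of the same genotype, and Ptges and Ptgis stay within 0.43 and 0.61 over all 12 arrays.

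Ptgs2, the inducible cyclooxygenase, varied most among the members. Before challenge it was at -1.47, -0.78 and -0.39 in WT and at -1.19, -1.07 and -1.85 in smSocs3-KO. At day 3 it was at 3.38, 2.39 and -0.27 in WT replicates 1, 3 and 4 and at 2.88, -0.42 and 0.89 in smSocs3-KO replicates 2, 3 and 5. In each genotype every day 3 array lay above every array before challenge, but 1 of the 3 day 3 arrays of each genotype was close to the range before challenge. The day 3 mean was 1.83 ± 1.89 (SD, n = 3) in WT and 1.12 ± 1.67 in smSocs3-KO, compared with -0.88 ± 0.54 and -1.37 ± 0.42 before challenge. The WT challenge response was thus 2.72 on the log2 scale (95% CI 0.68 to 4.76), a 6.58-fold higher signal, with an adjusted p of 0.0990 by limma. The smSocs3-KO challenge response was 2.49 (0.45 to 4.53), 5.62-fold, with an adjusted p of 0.147. The interaction was -0.23 (-3.11 to 2.66), an interval that leaves room for a large difference between the responses in either direction. Without WT replicate 4, the WT challenge response was 3.77 with an adjusted p of 0.0121, in a fit in which 15.9% of all genes passed.

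The probe of Ptgs2, at chr1:151954744-151954803 on mm9, was printed in 10 spots, whose log2 signals on an array had a median SD of 0.0692 and at most 0.167. The SD between arrays within groups was 1.30, larger than in 99.5% of tested genes, and the range over the 12 arrays, 5.24, was larger than in 99.0%. The markers of macrophages, which can express Ptgs2, moved with the challenge. Of 11 measured, 8 in WT and 9 in smSocs3-KO had all day 3 arrays above those before challenge, beside 20.7% and 14.1% of all genes. None passed the adjusted threshold in WT and 5 passed it in smSocs3-KO, beside 4.68% and 2.45% of all genes. The median log2 differences of these markers were 1.04 and 1.64. Their summed signal, in multiples of the 75th percentile, ranged from 198 to 245 in WT before challenge and from 170 to 292 at day 3, and from 150 to 339 and from 203 to 238 in smSocs3-KO, but the largest part of this sum came from the single probe of Itgam and it does not describe the other 10 markers. None of the macrophage markers was unmeasured, and their part in the Ptgs2 result was not tested.

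Ptgs1, the constitutive cyclooxygenase, was at 2.63, 2.65 and 2.50 in WT before challenge, at 2.49, 2.93 and 2.29 in WT at day 3, at 2.71, 2.65 and 3.25 in smSocs3-KO before challenge and at 2.73, 2.65 and 3.40 in smSocs3-KO at day 3. All 4 groups overlapped. Its log2 differences at day 3 were -0.02 in WT (95% CI -0.57 to 0.53) and 0.06 in smSocs3-KO (-0.49 to 0.61). A change of more than 1 log2 unit in either direction was thus outside these intervals, in contrast to Ptgs2, although no test compared the responses of the 2 genes.

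The terminal synthases, which turn prostaglandin H into prostaglandin E (Ptges) and prostacyclin (Ptgis), were read by 2 probes each. The probe that stood for Ptges was between 4.96 and 5.39 on the 12 arrays, and its range was among the smallest 2.14% of tested genes. Over the 12 arrays its level correlated with the 75th percentile of the array at r = -0.81. The part of the scaling in its small range was not tested. The probe that stood for Ptgis was between 7.16 and 7.77, a range among the smallest 8.86%. The 95% CI of the 4 pairwise differences stayed between -0.52 and 0.38 for Ptges and between -0.46 and 0.61 for Ptgis. The other probe of Ptges gave another picture. It lies at chr2:30748214-30748273 on mm9 and near the start of the same transcript, at base 364, and the probe that stood for the gene lies at base 3583. The other probe was at -2.98, -2.41 and -2.39 in WT before challenge, at -2.19, -1.97 and -2.75 in WT at day 3, at -2.54, -1.83 and -1.50 in smSocs3-KO before challenge and at -1.55, -1.22 and -0.16 in smSocs3-KO at day 3. All 3 smSocs3-KO arrays at day 3 were above all WT arrays, by a log2 difference of 1.32 at day 3 (95% CI 0.48 to 2.17) with an adjusted p of 0.148 over the 32291 probes. The probe that stood for the gene differed by 0.032 there. On slide 1 alone, the other probe was at -2.54 on the smSocs3-KO array before challenge, within the WT range of -2.98 to -2.39 before challenge. The remaining arrays of that smSocs3-KO group, on slide 2, were at -1.83 and -1.50. In the WT challenge response the probes were at 0.29 and -0.17, in the smSocs3-KO challenge response at 0.98 and -0.03, and before challenge between genotypes at 0.64 and -0.11, so that their signs differed in these 3 comparisons. Which of the 2 probes follows the Ptges transcript more closely was not tested. The other probe of Ptgis belongs to a different transcript and was between -2.76 and -2.17 on the 12 arrays, with log2 differences from -0.31 to 0.35 in the pairwise comparisons and no adjusted p below 0.202.

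**Figure D2:**
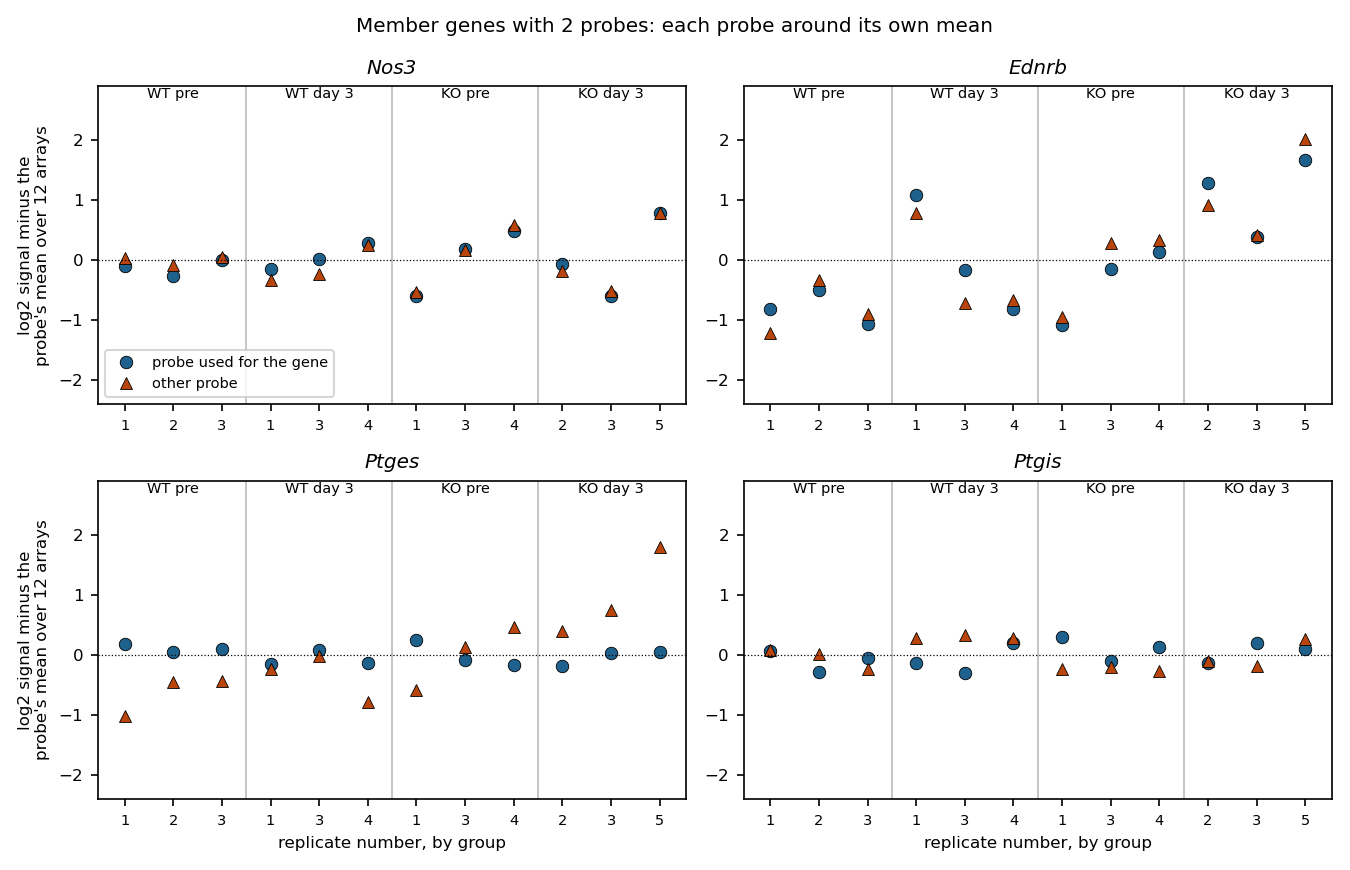
Deviation of each probe from its own mean over 12 arrays (vertical axis, log2) for the 4 members with 2 probes, by group and replicate number. Circles are the probe that stood for the gene and triangles the other probe. The probes move together for Nos3 and Ednrb, whereas for Ptges only the other probe is high on the smSocs3-KO arrays at day 3, where its levels are -1.55, -1.22 and -0.16.

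Among the endothelin genes, Ednrb had the largest differences. It encodes the endothelin B receptor. Its level was -1.85, -1.53 and -2.10 in WT before challenge and 0.06, -1.20 and -1.85 in WT at day 3. In smSocs3-KO it was -2.11, -1.18 and -0.89 before challenge and 0.26, -0.64 and 0.64 at day 3. The smSocs3-KO arrays at day 3 all lay above those before challenge, but the WT groups overlapped, and WT replicate 4 was within the range before challenge. The smSocs3-KO challenge response was 1.48 (95% CI 0.39 to 2.57), 2.79-fold, with an adjusted p of 0.116 by limma, and the WT challenge response was 0.83 (-0.26 to 1.91) with an adjusted p of 0.306, and 1.25 (adjusted p 0.114) without replicate 4. The interaction was 0.65 (-0.89 to 2.19, adjusted p 0.988), so the responses of the 2 genotypes were not shown to differ. At day 3 the genotype difference was 1.08 (-0.0046 to 2.17, adjusted p 0.311). With slide as a block it was 0.014, in a fit whose slide term rests on the only smSocs3-KO array of slide 1. The other probe of Ednrb, in another part of the same transcript, gave 1.23 in smSocs3-KO, 0.61 in WT and 1.32 between the genotypes at day 3, the same direction in each. Within slide 2 the smSocs3-KO challenge response of Ednrb was 1.12, from 3 and 2 arrays. Over the 12 arrays the levels of its probes correlated with the 75th percentile of the array at r = 0.69 and 0.74. The part of the scaling in these differences was not tested.

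Edn1, the gene of the endothelin-1 precursor, was at 0.80, 0.93 and 0.97 in WT before challenge, and at 1.43, 1.92 and 0.56 at day 3. In smSocs3-KO it was at -0.06, 0.82 and 0.52 before challenge and at 1.06, 1.92 and 0.63 at day 3. In each genotype 2 of the 3 day 3 arrays were above all arrays before challenge and the remaining array was not. The challenge response was 0.40 in WT (95% CI -0.46 to 1.26, adjusted p 0.533 by limma) and 0.78 in smSocs3-KO (-0.08 to 1.64, adjusted p 0.249). The SD between arrays within groups was 0.53. Leaving out single arrays moved the WT response between 0.096 and 0.78, the latter without WT replicate 4 (adjusted p 0.186).

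Ece1, the converting enzyme that releases endothelin-1, had opposite signs in the 2 genotypes. It was at 0.85, 0.99 and 0.51 in WT before challenge and 0.11, 0.79 and 0.25 at day 3. In smSocs3-KO it was at 1.03, 0.32 and 0.21 before challenge and 0.83, 0.49 and 1.71 at day 3. The groups overlapped in every comparison, and with the replicate number as a block the smSocs3-KO sign turned (-0.089). The response was -0.40 (95% CI -1.13 to 0.33) in WT and 0.49 (-0.24 to 1.23) in smSocs3-KO, and the interaction was 0.89 (-0.15 to 1.93) with an adjusted p of 0.964 by limma. The highest value came from smSocs3-KO replicate 5 at day 3. The receptor on smooth muscle, Ednra, was at 1.48, 1.75 and 1.94 in WT before challenge and at 2.42, 1.51 and 1.78 at day 3. It was at 1.53, 2.22 and 1.61 in smSocs3-KO before challenge and at 2.48, 2.35 and 1.64 at day 3. Its 4 groups overlapped, with responses of 0.18 (-0.48 to 0.85) in WT and 0.38 (-0.29 to 1.04) in smSocs3-KO.

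Nos2, the inducible nitric oxide synthase, was at -1.92, -1.96 and -1.996 in WT before challenge and at -2.01, -1.84 and -2.11 in smSocs3-KO before challenge, so that the 6 arrays lay between -2.11 and -1.84. At day 3 it was at -1.41, -1.63 and -2.36 in WT, and at -1.06, -1.66 and -1.11 in smSocs3-KO. The 3 smSocs3-KO arrays at day 3 lay above all arrays before challenge, and WT replicate 4 at day 3 was the lowest of the 12 arrays. The smSocs3-KO challenge response was 0.71 (95% CI 0.17 to 1.25), 1.64-fold, with an adjusted p of 0.128 by limma, and the WT response was 0.16 (-0.39 to 0.70) with an adjusted p of 0.706. The interaction, 0.55 (-0.22 to 1.32), had an adjusted p of 0.970. Without WT replicate 4 the WT response was 0.44 and the adjusted p of the smSocs3-KO response was 0.0416, in a fit in which 8.42% of all genes passed. The scanner software marked Nos2 as well above background on every array. Its probe was printed in 2 spots, whose log2 signals on an array had a median SD of 0.109 and at most 0.565. Of the neutrophil markers 6 of 9 were measured, 3 with a higher and 3 with a lower mean at day 3 in smSocs3-KO. The lower means were those of Mmp9 (-2.43 before challenge and -3.84 at day 3), Csf3r (7.95 and 7.58) and Camp (-2.58 and -2.86). Ly6g was the 1 that passed the adjusted threshold in smSocs3-KO, beside 2.45% of all genes. It rose by 1.58 (adjusted p 0.0222 by limma) and was at 1.60, 1.51 and 2.36 at day 3, compared with -0.12, 0.36 and 0.48 before challenge. S100a8 was at 3.32, -1.77 and 0.67 on the smSocs3-KO arrays at day 3 (adjusted p 0.131), where Nos2 was at -1.06, -1.66 and -1.11. The summed signal of the list, from 190 to 416 in smSocs3-KO before challenge and from 196 to 232 at day 3, came mostly from the single probe of Csf3r. The part of these cells in the Nos2 values was not tested.

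Nos3, the endothelial synthase, had similar means in all groups and a spread that was larger in smSocs3-KO. It was at 3.92, 3.75 and 4.02 in WT before challenge and at 3.87, 4.04 and 4.31 at day 3. In smSocs3-KO it was at 3.42, 4.20 and 4.50 before challenge and at 3.95, 3.42 and 4.81 at day 3. The SD was 0.13 and 0.22 in the WT groups and 0.56 and 0.70 in the smSocs3-KO groups, a difference that was not tested. The responses were 0.17 (95% CI -0.59 to 0.94) in WT and 0.02 (-0.75 to 0.78) in smSocs3-KO. The other probe of Nos3, printed in 10 spots with a median SD of 0.0611, followed the same arrays: it was 1.04, 1.73 and 2.14 in smSocs3-KO before challenge and 1.37, 1.04 and 2.34 at day 3. Both probes thus ranked the 6 smSocs3-KO arrays alike, but the WT response was -0.10 with the other probe. None of the 10 endothelial markers passed the adjusted threshold in either response, and 2 passed in the mean of both, beside 22.7% of all genes. For 4 in WT and 2 in smSocs3-KO all day 3 arrays lay above those before challenge, beside 20.7% and 14.1% of all genes. The summed signal of the 10 markers was between 79.5 and 80.4 in WT before challenge and between 90.9 and 111 at day 3. In smSocs3-KO it was between 68.4 and 101 and between 89.9 and 104. Vwf and Egfl7 gave the largest parts of this sum.

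**Figure D3:**
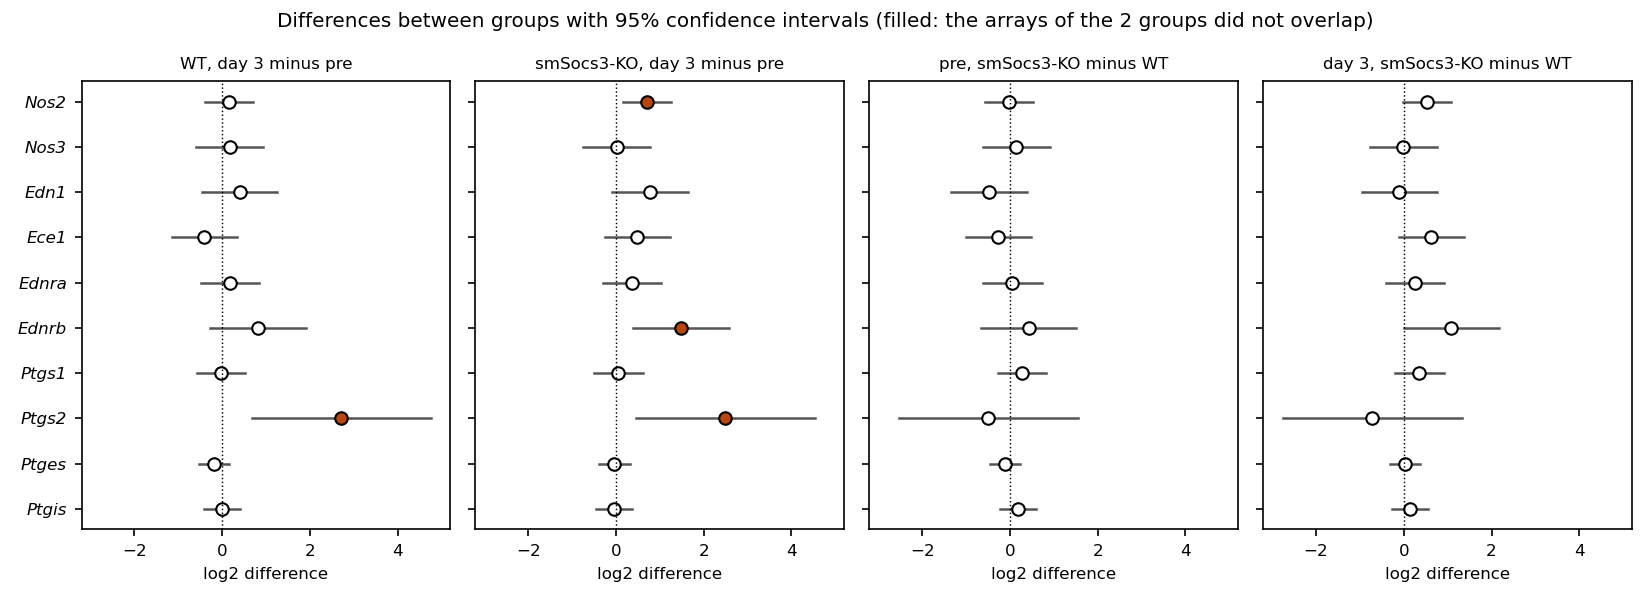
Log2 difference of each member (horizontal axis) in the 4 pairwise comparisons, with the 95% confidence interval from limma as lines, over 3 arrays per group. Filled points mark comparisons in which the arrays of the 2 groups did not overlap, which are Ptgs2 in WT and Nos2, Ednrb and Ptgs2 in smSocs3-KO.

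The order of the group means was followed for the members with the largest differences. For Ptgs2 the order from high to low was WT at day 3 (1.83), smSocs3-KO at day 3 (1.12), WT before challenge (-0.88) and smSocs3-KO before challenge (-1.37). The genotype differences within a time point, -0.72 at day 3 and -0.49 before challenge, were smaller than the SD of 1.30 between arrays. For Ednrb the order was smSocs3-KO at day 3 (0.09), WT at day 3 (-0.998), smSocs3-KO before challenge (-1.39) and WT before challenge (-1.82), with arrays of neighbouring groups overlapping throughout. For Nos2 the smSocs3-KO group at day 3 (-1.28) was followed by WT at day 3 (-1.80), and the groups before challenge (-1.96 and -1.99) differed by -0.03. For the other 7 members every distance between neighbouring group means was smaller than the SD between arrays within groups.

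The mean of both challenge responses was added as a contrast after the values of each genotype had been seen. In it, 2 of 10 members passed the adjusted threshold of limma, compared with 22.7% of all genes. Ptgs2 was higher by 2.60 (95% CI 1.16 to 4.05), 6.08-fold, with an adjusted p of 0.0198, and 6 of 6 day 3 arrays were above the arrays before challenge of their genotype. Ednrb was higher by 1.15 (0.38 to 1.92), 2.22-fold, with an adjusted p of 0.0380. Ptgs2 kept an adjusted p under 0.05 in 23 of 25 settings and Ednrb in 13 of 25. Nos2 was at 0.43 (adjusted p 0.0918) and Edn1 at 0.59 (adjusted p 0.138). Without WT replicate 4, Ptgs2, Ednrb, Nos2 and Edn1 had adjusted p of 0.00258, 0.0134, 0.0124 and 0.0415, beside 28.3% of all genes, so that 4 of 10 members passed.

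The other genes of the 3 pathways came from a list of 55, of which 48 were tested. Nos1, Arg2, Edn2, Edn3, Kel, Ptgdr and Ptgdr2 had no probe that passed the filter on dim signals. In the nitric oxide pathway, none of 25 genes passed the adjusted threshold in the WT challenge response (7 at an unadjusted p under 0.05), 1 did in the smSocs3-KO challenge response (9 unadjusted), none before challenge (1 unadjusted) and 1 between the genotypes at day 3 (7 unadjusted). Over all genes the unadjusted shares in these comparisons were 26.6%, 23.8%, 4.40% and 16.2%, and the adjusted shares 4.68%, 2.45%, 0.0264% and 1.11%. The median log2 difference of the 25 genes was 0.01 in WT and -0.13 in smSocs3-KO. Ass1, which remakes arginine from citrulline, rose by 1.19 (95% CI 0.59 to 1.79) in smSocs3-KO, with an adjusted p of 0.0498 by limma. It was at 2.23, 2.26 and 2.94 at day 3 and at 0.79, 1.27 and 1.80 before challenge. Spr, the last enzyme in the synthesis of the synthase cofactor tetrahydrobiopterin, was 2.55 higher in smSocs3-KO at day 3 (1.53 to 3.58, adjusted p 0.0318). Its day 3 arrays were at 2.25, 2.40 and 2.67 compared with 0.26, -0.35 and -0.24 in WT. Before challenge the 3 smSocs3-KO arrays were at 0.18, -0.26 and 1.997, all below the 3 day 3 arrays.

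Several nitric oxide genes had large but variable values. Ddah1, which breaks down the endogenous inhibitor of the synthases, was at 0.85, 0.58 and -4.08 in WT at day 3, compared with -3.87, -4.00 and -3.94 before challenge. In smSocs3-KO it was at -0.56, -0.56 and -0.85 at day 3 and at -3.94, -3.09 and -4.20 before challenge. WT replicate 4 thus kept the level of the arrays before challenge. The response of Ddah1 was 3.05 in WT (adjusted p 0.0917) and 3.08 in smSocs3-KO (adjusted p 0.110), and 4.65 in WT without replicate 4 (adjusted p 0.000183). Arg1, which competes for arginine, was not well above background on any WT array before challenge and was at least 2.07-fold higher in WT at day 3, where 2 of 3 arrays measured it (adjusted p 0.314). The adjusted p of its WT response was 0.107 without replicate 4. Its response was 4.004 in smSocs3-KO (adjusted p 0.173), with day 3 arrays at 2.16, -4.28 and 0.87 and arrays before challenge at -6.03, -4.19 and -3.05. Of the latter, 2 were well above background. Arg1 thus passed the filter on dim signals only through smSocs3-KO at day 3, where its mean was highest, and this response rests on that selection. Gch1, the first enzyme of tetrahydrobiopterin synthesis, was at 0.90 in WT (adjusted p 0.118) and 1.15 in smSocs3-KO (adjusted p 0.0821). Downstream of nitric oxide, the guanylyl cyclase subunit Gucy1a1, named Gucy1a3 on the array, was at 4.81, 5.16 and 5.15 in WT before challenge and at 3.23, 2.95 and 5.12 at day 3, and its response was -1.27 in WT (adjusted p 0.155) and -1.40 in smSocs3-KO (adjusted p 0.151). The responses of its partner Gucy1b1 were -0.57 and -0.64, those of the kinase Prkg1 -0.36 and -0.71, and those of the cGMP phosphodiesterase Pde5a -0.30 and -0.44, none with an adjusted p below 0.208. The smooth muscle markers were lower on the smSocs3-KO arrays at day 3 too, as given above, and their part in these values was not tested. Without WT replicate 4, the WT responses of Gucy1b1, Prkg1 and Pde5a were -1.06, -0.72 and -0.49, none with an adjusted p below 0.0747. In that fit 5 of 25 nitric oxide genes passed in WT, beside 15.9% of all genes, and Cav1, Ddah1, Gch1 and Gucy1a1 were among them. Cav1 was at 2.12, 2.39 and 2.40 in WT before challenge and at 1.32, 1.49 and 2.30 at day 3.

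In the endothelin pathway 3 other genes were tested. Ece2, another converting enzyme, rose in WT by 1.73 (95% CI 0.93 to 2.54), 3.32-fold, with an adjusted p of 0.0350 by limma. It was at 0.91, 0.89 and 0.98 before challenge and at 3.20, 3.06 and 1.73 at day 3. In smSocs3-KO it was at 1.23, 1.19 and 1.18 before challenge and at 2.43, 2.26 and 3.28 at day 3, a difference of 1.46 (adjusted p 0.0618), and the groups did not overlap in either genotype. Ece1 had no such difference (-0.40 and 0.49), but no test compared the 2 genes. Ecel1, named for its likeness to the converting enzymes, was well above background on all 6 smSocs3-KO arrays and on no WT array. Its probe thus passed the filter on dim signals only through the smSocs3-KO groups, where it was high, and its calls rest on that selection. It was at least 2.06-fold higher in smSocs3-KO before challenge, where it passed the threshold of the study's methods but not the adjusted one (adjusted p 0.209), and at least 3.35-fold higher at day 3 (adjusted p 0.0258). Mme, the neutral endopeptidase, had responses of -0.50 in WT and 0.74 in smSocs3-KO, with adjusted p of 0.418 and 0.257. When WT replicate 4 was left out its WT response was -0.93 (adjusted p 0.0745) and its genotype difference at day 3, 1.02 with all arrays (adjusted p 0.228), was 1.45 (adjusted p 0.0449).

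In the prostanoid pathway, 1 of 20 genes passed the adjusted threshold in each challenge response (8 in WT and 6 in smSocs3-KO at an unadjusted p under 0.05), none before challenge (3 unadjusted) and 1 between the genotypes at day 3 (4 unadjusted). The shares over all genes were 4.68% and 2.45% in the challenge responses (26.6% and 23.8% unadjusted), so that 1 of 20 was near the share over all genes. In the genotype differences these shares were 0.0264% before challenge and 1.11% at day 3 (4.40% and 16.2% unadjusted). The 1 gene called at day 3 was Ptger3, which passed the filter on dim signals only through the smSocs3-KO groups. Pla2g2d, a secreted phospholipase A2 found in immune cells, fell by 2.26 on the log2 scale in WT (adjusted p 0.0324 by limma) and fell by 1.79 in smSocs3-KO (adjusted p 0.0492). It was at -1.40, -1.26 and -1.64 before challenge and at -4.83, -2.93 and -3.31 at day 3 in WT, and at -1.92, -1.99 and -1.61 and then at -3.81, -3.18 and -3.92 in smSocs3-KO. Pla2g4a, which releases arachidonic acid inside cells, had responses of 0.88 in WT (adjusted p 0.120) and 0.66 in smSocs3-KO (adjusted p 0.241). Tbxas1, the thromboxane synthase, had responses of 0.69 (adjusted p 0.142) and 1.05 (adjusted p 0.0678), and its day 3 arrays lay above those before challenge in each genotype. Its WT response was 0.99 (adjusted p 0.0217) without replicate 4. Among the receptors, Ptger1 for prostaglandin E had responses of 1.30 in WT (adjusted p 0.0762) and 1.51 in smSocs3-KO (adjusted p 0.0678), with no overlap in either genotype, and without WT replicate 4 these adjusted p were 0.0130 and 0.0220. Ptgfr for prostaglandin F had responses of -1.05 (adjusted p 0.0986) and -0.79 (adjusted p 0.207), and the former was -1.44 (adjusted p 0.0133) without WT replicate 4. Ptgir for prostacyclin was at 0.12 and 0.50, Tbxa2r for thromboxane at -0.74 and -0.49, and Ptger4 for prostaglandin E at 0.57 and 0.77, with no adjusted p below 0.210. Without WT replicate 4 the WT responses of these receptors were 0.30, -1.22 and 0.997, and that of Tbxa2r passed (adjusted p 0.0106). Ptger2, another prostaglandin E receptor, was not well above background on any WT array before challenge and at least 1.16-fold higher in WT at day 3 (adjusted p 0.380). It passed the filter on dim signals only through smSocs3-KO at day 3, where its mean was highest.

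**Figure D4:**
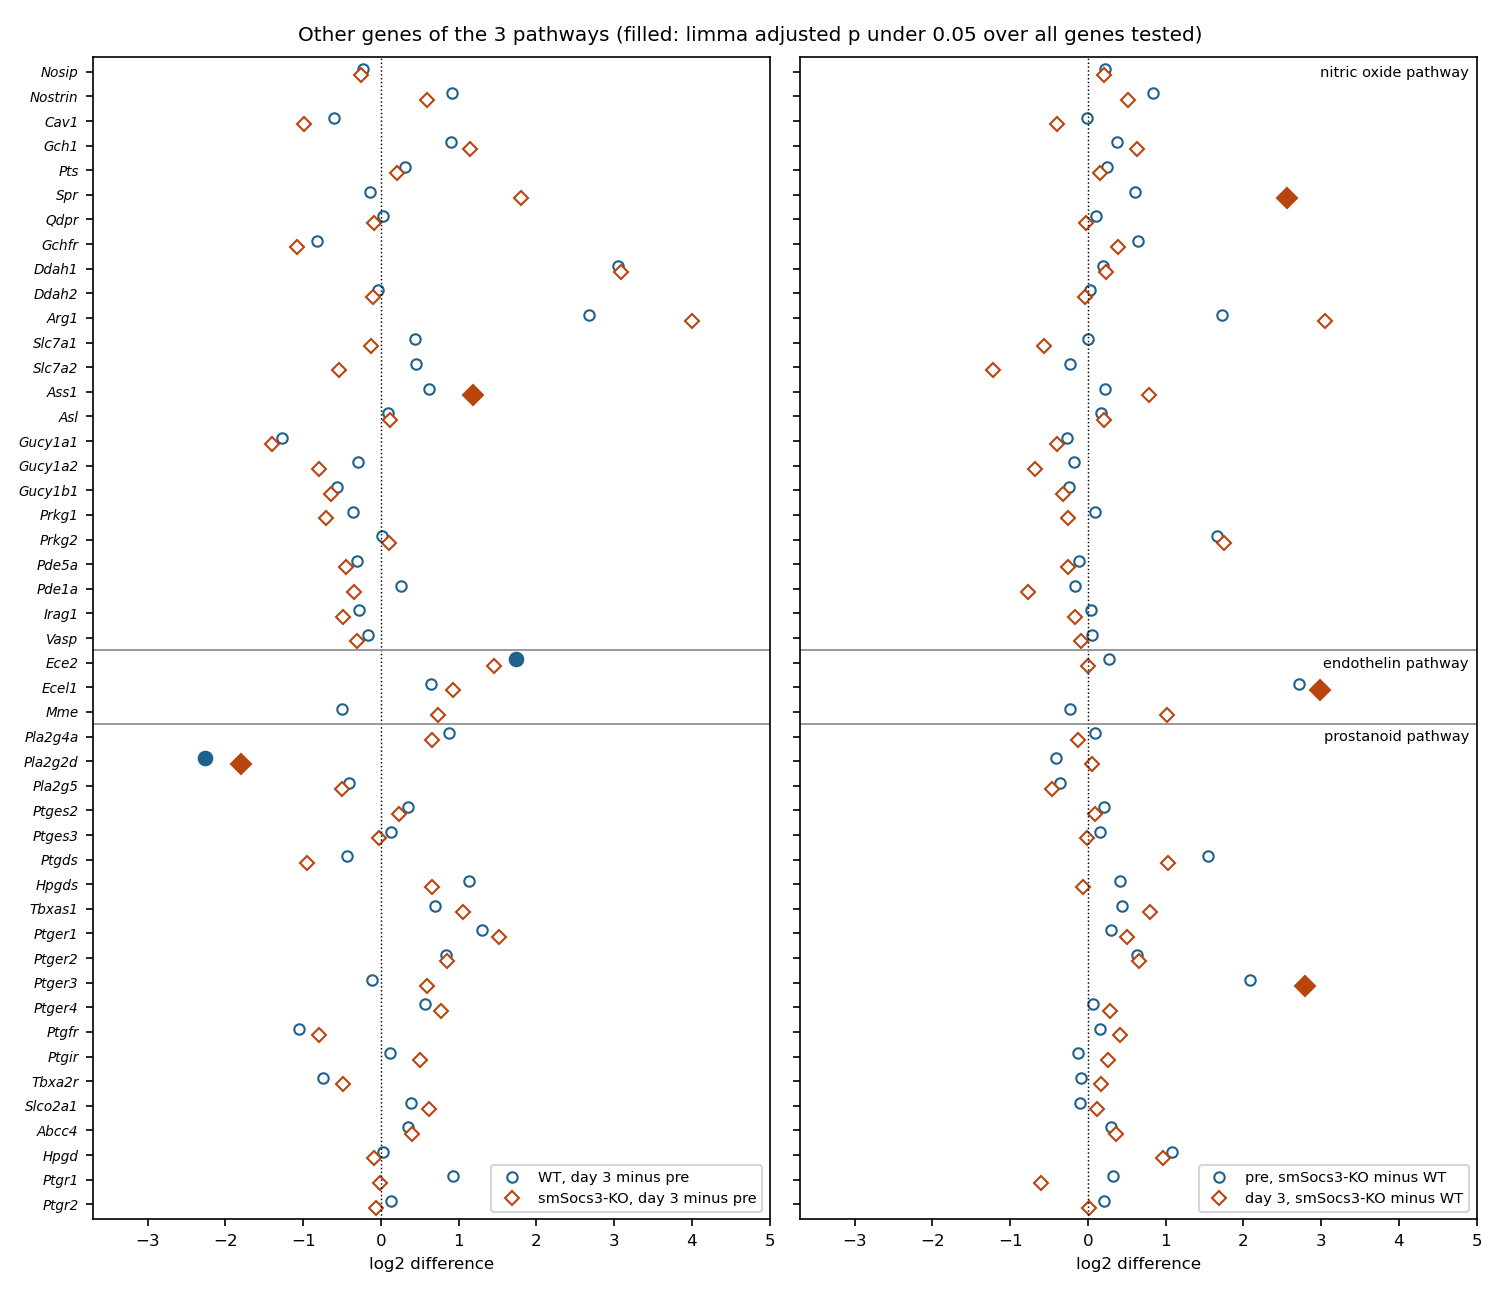
Log2 differences (horizontal axis) of other genes of the nitric oxide, endothelin and prostanoid pathways, with the challenge responses on the left and the genotype differences on the right. Circles and diamonds are the comparisons named in each legend, and filled marks have an adjusted p under 0.05 over all 22769 genes. Filled marks are Ass1, Ece2 and Pla2g2d on the left and Spr, Ecel1 and Ptger3 on the right.

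Ptger3, a further prostaglandin E receptor, was higher on the arrays labelled smSocs3-KO. It was well above background on all 6 of these, on 2 WT arrays before challenge and on 1 WT array at day 3, so that it passed the filter only through the smSocs3-KO groups and its calls rest on that selection. It was at -4.76, -3.66 and -3.65 in WT and -2.93, -1.61 and -1.29 in smSocs3-KO before challenge, a difference of 2.08 that passed the threshold of the study's methods but not the adjusted one (adjusted p 0.575). At day 3 it was at -4.26, -3.15 and -5.01 in WT and -1.50, -1.64 and -0.92 in smSocs3-KO, a difference of 2.79 (adjusted p 0.0373 by limma), which was 2.36 (adjusted p 0.0516) without WT replicate 4. On slide 1 alone, the single smSocs3-KO array was above the 3 WT arrays before challenge for Ptger3 (-2.93) and for Ecel1 (-3.64, compared with a highest WT value of -5.79). For Spr that array was at 0.18, within the WT range of -0.14 to 0.31. For Hpgd, given next, it was at 1.26, compared with a highest WT value of 0.29. Hpgd, which inactivates prostaglandins, was 1.09 higher before challenge (adjusted p 0.649) and 0.97 higher at day 3 (adjusted p 0.153). Markers of mesothelium, the lining of the outer surface, moved with the same arrays. Of 8 measured, none passed the adjusted threshold. That of the study's methods was passed by 1 before challenge and 5 at day 3, beside 0.242% and 1.11% of all genes. At day 3, 7 did not overlap and were higher, compared with 7.87% of all genes. Before challenge 5 did not overlap and were higher, where 11.1% of all genes did not overlap in either direction. The median genotype difference was 1.95 before challenge and 2.54 at day 3, and the summed signal was between 5.11 and 28.9 on the 6 WT arrays and between 34.8 and 79.6 on the 6 smSocs3-KO arrays. The part of these cells in the genotype differences of Ptger3, Ecel1, Spr and Hpgd was not tested.

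As a description over the 12 arrays, the genes with the signal pattern most like each member were sought among 12513 named genes that were well above background on all arrays. They were Bri3bp (r = 0.96) and Adam12 (0.95) for Ptgs2, Nme4 (0.97) and Shkbp1 (0.96) for Ednrb, Ptx3 (0.96) and Sirpa (0.95) for Nos2, and Chst7 (0.90) and Clec1a (0.89) for Edn1. For the remaining members they were Kcnq1 and Hyal2 for Nos3 (both 0.90), Ghrl (0.92) and 4931406H21Rik (0.84) for Ece1, Vps26a (0.90) and Abhd8 (0.88) for Ednra, Rab11fip5 (0.90) and Trpv4 (0.88) for Ptgs1, Tprkb (0.99) and Oas1b (0.98) for Ptges, and Zhx3 (0.88) and Clip1 (0.84) for Ptgis. These values share the same 12 arrays and group structure, and the 2 genes given for each member are the highest of 12513 candidates.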

How the data were processed

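Aortic RNA of 12 samples was hybridised to one-colour Agilent arrays with 60-base probes. The deposited scanner files hold spot intensity from Agilent Feature Extraction, version 10.7.1.1 per the file headers and 9.5.1.1 per the submitters' processing notes. The authors also deposited a table of quantile-normalized intensity, whose columns shared a median of 30.2, which was used as an alternative. Groups were taken from the labels, and probe positions (mm9) from the scanner files.

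The processed intensity was put on the log2 scale, spots with outlier marks and control spots were left out, replicate spots were averaged per probe, and the 75th percentile was subtracted array by array. The filter on dim signals retained the 32291 of 55681 probes that every array of some group flagged as well above background, and the brightest kept probe stood for a gene. The 22769 genes were fitted with limma 3.58.1 (R 4.3.3, with data.table in version 1.17.8) as 4 group means over 12 arrays, with Benjamini-Hochberg adjustment over all genes. The script was tested on simulated data. The number of arrays limits the precision. Where a probe was not well above background on any array of a group, the fold is a bound: the mean of the brighter group against, per array, the higher of the lowest signal well above background and the signal of the probe. Named genes were the 10 members, chosen genes of the 3 pathways with any other that passed a threshold, and the 2 genes most correlated with each member among genes named in the RefSeq gene list, which held 62.0% of the tested genes. In the nitric oxide list, 1 gene is counted but not reported here by name or in the plot. The members and lists were chosen with earlier results of these data known. Alternatives concerned background correction, normalization, the filter, outlier spots, the choice of probe, the moderation of variances, the arrays in the fit, slide, replicate number and leaving out each array. Promoter sequences were those of the RefSeq table on GRCm38.p6, and no coordinates were converted between builds.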

Additional observations from a re-analysis of the deposited data

How the results depend on the processing

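The number of members with an adjusted p under 0.05 was 0 in the 4 pairwise comparisons and the interaction, and leaving out each array in turn gave 0 to 1 in the WT and in the smSocs3-KO challenge response, with 1 in each without WT replicate 4 at day 3. At the threshold of the study's methods the count in the WT response was 1 with the array median, with trend and robust moderation and with the replicate block, and 0 to 1 leaving out an array. In the smSocs3-KO response it was 1 with the array median and 0 to 1 leaving out an array. In the mean of both responses, an alternative chosen after seeing the data, the count of 2 became 1 without the filter on dim probes, with the mean of all kept probes and with slide as a block, became 0 with the replicate block, and was 0 to 4 leaving out an array. It became 3, with Nos2 added, under the array median (adjusted p 0.0320), the authors' values (0.0449), quantile normalization (0.0449) and normexp with quantile normalization (0.0390). Ptgs2 lost its call there with the replicate block (2.57, adjusted p 0.0553 by limma) and without WT replicate 1 before challenge (2.46, adjusted p 0.0532). Whether the replicate numbers pair the samples was not settled. Of 11 pairs with the same number 4 correlated above 0.1, from -0.40 to 0.46, but pairs with different numbers were not computed as a baseline. For each of these shifts the cause was not tested.

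Signs turned mostly for differences near 0. With the array median, which raised the median of all genes by over 0.1, the values that turned were, at day 3 between genotypes, Edn1 0.062 and Nos3 0.15, before challenge Nos2 0.12 and Ptges 0.035, in the WT response Ptges 0.018 and Ptgs1 0.17, and in the smSocs3-KO response Ptges 0.18 and Ptgis 0.16. With the authors' values they were Nos2 before challenge (0.046), Nos3 in WT (-0.051), in smSocs3-KO (-0.11) and at day 3 (0.011), Ptgis in WT (-0.18) and Ptgs1 in smSocs3-KO (-0.065). Quantile normalization turned the same values, to 0.046, -0.052, -0.11, 0.011, -0.19 and -0.066, and normexp with quantile normalization turned them to 0.038, -0.082, -0.12, 0.0041, -0.19 and -0.064, with Ednra before challenge at -0.036. Normexp alone turned Nos3 at day 3 (0.048), Ptgs1 in WT (0.060), and Ptges (0.066) and Ptgis (0.013) in smSocs3-KO. The mean of all kept probes turned Nos3 at day 3 (0.058) and in smSocs3-KO (-0.017), Ptges in WT (0.059), before challenge (0.26) and in smSocs3-KO (0.47), and Ptgis at day 3 (-0.087) and in smSocs3-KO (0.086). The replicate block turned Nos2 (0.22) and Ptgs2 (0.64) before challenge, Ptgis in WT (-0.19), and in smSocs3-KO Ece1 (-0.089), Nos3 (-0.33), Ptgis (0.23) and Ptgs1 (-0.23). Slide as a block turned, before challenge, Ece1 (0.25), Ednra (-0.19), Ednrb (-0.28), Nos3 (-0.47) and Ptges (0.14), at day 3 Ednra (-0.13), and in smSocs3-KO Nos3 (-0.29), Ptges (0.090), Ptgis (0.042) and Ptgs1 (-0.022).

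Leaving out single arrays gave both signs, in the WT response, for Ednra (-0.075 to 0.38), Nos2 (-0.037 to 0.44), Ptgis (-0.13 to 0.12) and Ptgs1 (-0.20 to 0.12), and in the smSocs3-KO response for Nos3 (-0.36 to 0.33), Ptges (-0.12 to 0.090), Ptgis (-0.16 to 0.042) and Ptgs1 (-0.18 to 0.25). Before challenge it did so for Ednra (-0.16 to 0.19), Nos2 (-0.10 to 0.038) and Nos3 (-0.083 to 0.46), and at day 3 for Edn1 (-0.47 to 0.21), Nos3 (-0.38 to 0.31), Ptges (-0.0076 to 0.11) and Ptgs2 (-1.77 to 0.057).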
